A study of Mus musculus with 10 samples.

Results

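The genes examined here encode the subunits of the A-type potassium channel, the channel behind the transient potassium current IA. Type-1 inspiratory neurons of the preBötzinger complex (preBötC) were recognised in the slice in part by this current. The other criteria were a long build-up before the inspiratory burst and no depolarizing sag during hyperpolarizing steps. The 10 genes are the pore-forming Kcnd1, Kcnd2, Kcnd3 and Kcna4, the potassium channel interacting protein (KChIP) genes Kcnip1, Kcnip2, Kcnip3 and Kcnip4, and the dipeptidyl peptidase-like (DPP) genes Dpp6 and Dpp10. All 10 were listed among the 55367 genes of the deposited tables. Each library held the cytoplasm of 1 inspiratory neuron drawn into the patch pipette in a transverse slice from mice at postnatal day 0 to 3 (P0 to P3).

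The Type-1 group held 4 neurons. Samples 5 (P0), 6 (P3) and 7 (P3) were Dbx1-derived neurons from Dbx1;Ai148 mice, and sample 4 (P3) came from a CD-1 wild-type mouse. The Type-2 group was a single Dbx1-derived neuron from a Dbx1;Ai148 mouse, sample 1 (P0). The Unknown group held 5 neurons of CD-1 mice whose physiology was ambiguous, samples 2 (P2), 3 (P0), 8 (P0), 9 (P2) and 10 (P1). In Dbx1;Ai148 mice, Cre under the Dbx1 promoter switches on the calcium indicator GCaMP6f, which marks cells whose precursors expressed Dbx1. These mice were on a C57Bl/6J or mixed C57Bl/6J and CD1 background. The lineage of the CD-1 neurons was not marked. The line of each neuron is given here as in the sample labels, and a figure legend of the study numbers the lines differently. The sources name no animal for a neuron, so each neuron type was treated as 1 sample. No test between types was made, and every value below is a description of these libraries.

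The A-current opens at voltages below the spike threshold, inactivates within milliseconds and delays the first spike after a depolarizing step. Channels of the Kv4 family, encoded by Kcnd1, Kcnd2 and Kcnd3, carry it in the cell body and dendrites of many neurons, and recover from inactivation quickly. Kv1.4, encoded by Kcna4, inactivates by a ball at its N-terminus and recovers slowly. KChIPs are calcium-binding proteins that attach to Kv4 channels inside the cell, bring them to the membrane and change their gating. DPP6 and DPP10 are membrane proteins related to a peptidase but without its activity, and they speed the gating of Kv4 channels.

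The 4 pore-forming genes share one stretch that lines the potassium-selective part of the pore. It is shown for Kcna4, Kcnd1 and Kcnd2 because it is among the most conserved parts of the family and still differs between these genes in many letters. The coding strand is printed from GENCODE M21 on GRCm38, with the codons of the selectivity filter in capitals. The stretch of Kcna4 lies in 1 exon, at chr2:107296471-107296536. The stretches of Kcnd1 and Kcnd2 are each cut by an intron after base 32, inside the filter codons. Their first parts are at chrX:7824932-7824963 for Kcnd1 and chr6:21217382-21217413 for Kcnd2. Their second parts are at chrX:7831172-7831205 and chr6:21714135-21714168. All 3 genes lie on the plus strand.
Kcna4: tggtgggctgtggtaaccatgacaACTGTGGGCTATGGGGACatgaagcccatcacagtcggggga
Kcnd1: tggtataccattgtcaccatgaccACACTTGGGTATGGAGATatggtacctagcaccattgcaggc
Kcnd2: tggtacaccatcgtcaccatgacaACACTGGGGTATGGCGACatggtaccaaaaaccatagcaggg
Over these 66 bases Kcnd1 and Kcnd2 differed at 11 positions, and Kcna4 differed from Kcnd1 at 25 and from Kcnd2 at 23. Over all annotated transcripts of the 10 genes, no window of 31 bases was shared between 2 pore-forming genes. Windows of that length were shared in 4 of the 45 gene pairs, 5 at most, in Kcnd1 with Dpp6.

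The libraries held between 21392146 and 36629393 fragments on genes, and between 5055 and 9307 genes reached 1 FPKM (the fragment count of a gene divided by its length in kilobases and by the fragments on genes in units of 1e+06). The reads carried no molecular identifiers, so all limits and intervals cover counting error only. A count of 0 has an exact 95% Poisson interval that reaches 3.69 counts. The study names samples 1 to 4 as those with the least cDNA and with lower and more variable expression. In these libraries 5055 to 6795 genes and 2 to 4 of the 10 members reached 1 FPKM, against 6632 to 9307 genes and 4 to 7 members in samples 5 to 10. They include the Type-2 neuron, 1 Type-1 neuron and 2 Unknown neurons. Sample 4 also stood apart in its marker genes. Of the 8 neuron markers, 6 were at 1 FPKM or more there, but their summed level was 58.4 FPKM, against 761 to 4670 FPKM in the other 9 libraries. The 8 microglia markers summed to 15398 FPKM in sample 4, to 2039 FPKM in sample 2 and to 0.685 to 492 FPKM elsewhere. All 8 were at 1 FPKM or more in samples 2 and 4. The label Type-1 of sample 4 therefore stands beside a library with little neuronal RNA, and the comparisons of Type-1 neurons below are given with and without it. Sample 9 had 4 of 5 motoneuron markers at 1 FPKM or more, with a summed level of 1202 FPKM. The oligodendrocyte lineage markers summed to 337 FPKM at most, in sample 3. The 10 astrocyte markers took 1.65% of the counts in sample 3, 1.12% in sample 4 and 0.885% in sample 2, and 0.590% or less across the rest. Their part in the values below was not tested.

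Each of the 10 genes was either well covered in a neuron or nearly without fragments. Of the 100 values (10 genes in 10 neurons), 53 rested on 11 fragments or fewer, 13 of them on none, and the other 47 rested on 81 fragments or more. No value lay between. In FPKM the gap ran from 0.14 to 0.534. Among all 12955 genes with a mean of 1 FPKM or more over the 10 neurons, 40.4% of the values rested on 11 fragments or fewer, 5.98% lay between 11 and 81 and 53.6% rested on 81 or more. At 1 FPKM or more there were 45 member values, with a median of 16.4 FPKM and a highest value of 85.1 FPKM. The 2 well-covered values under 1 FPKM were Kcnd2 in sample 4, at 0.534 FPKM from 81 fragments, and Dpp10 in sample 6, at 0.546 FPKM from 296 fragments. In 9 of the 10 genes the highest count in the lower set was at most 0.271% of the same gene's count in its highest library. The exception was Kcnd1, with 4 fragments in sample 4 against 329 in sample 5 (1.22%). Whether such few fragments came from the neuron or from another library was not tested.

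**Figure D1:**
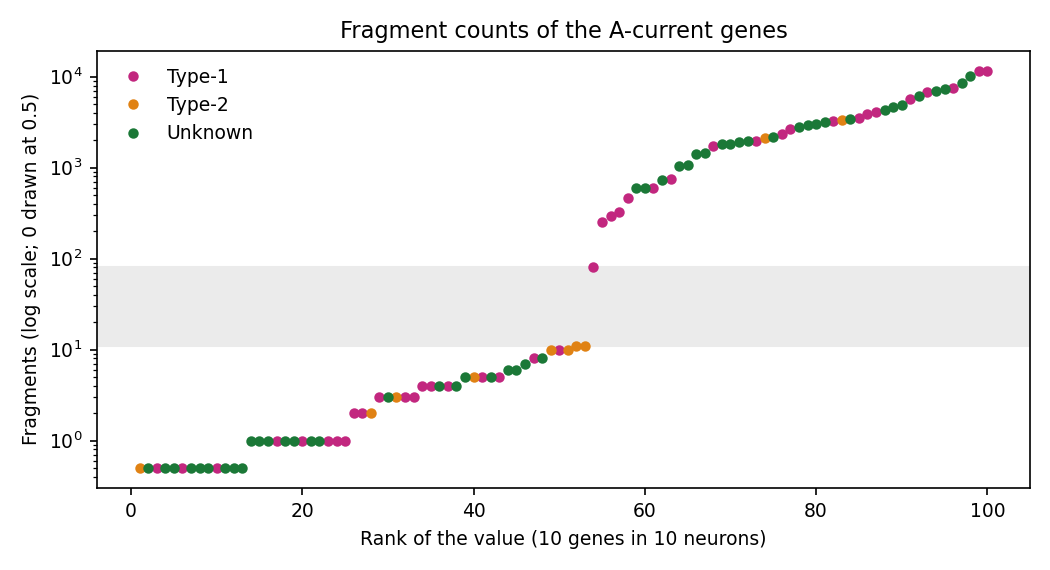
Fragment counts of the 10 A-current genes in the 10 neurons, ranked from lowest to highest (100 values, log axis, 0 drawn at 0.5), with the neuron type given by colour. The shaded band between 11 and 81 fragments holds no value.

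Kcna4, the Kv1.4 gene (chromosome 2, 107290639 to 107298502 in GRCm38), was present in the 3 Dbx1-derived Type-1 neurons and in no other. Its levels in samples 5, 6 and 7 were 4.23, 21.4 and 19.1 FPKM, from 748, 3262 and 2368 fragments. The Type-1 sample 4 had 2 fragments (0.0141 FPKM) and the Type-2 sample 1 had 5 (0.0484 FPKM). The Unknown neurons had 1, 3, 1, 6 and 0 fragments in samples 2, 3, 8, 9 and 10, or 0.0562 FPKM at most. The highest of these counts, in sample 9, has an exact 95% Poisson interval of 2.2 to 13.1 fragments, far below the lower bound of 695 in sample 5. Samples 6 and 7 lay closer to each other than to sample 5, which was lower than both. Among 16546 genes that reached 1 FPKM in 1 neuron or more, 47 (0.284%) reached that level in samples 5, 6 and 7 and in no other neuron. Kcna4 was the only member among them. The pattern was read from Kcna4 in the same libraries, so its small share does not measure how unusual it is.

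Kcnd2, the Kv4.2 gene (chromosome 6, 21215503 to 21729805), had the widest spread of the pore-forming genes. Among Type-1 neurons, samples 4, 5, 6 and 7 held 0.534, 0.0424, 35.3 and 1.93 FPKM. The Unknown samples 2, 3, 8, 9 and 10 held 39.6, 0.0436, 31.1, 12.8 and 0.00636 FPKM, and the Type-2 sample 1 held 0.0998 FPKM. The ranges of the Type-1 and Unknown neurons overlapped over nearly their whole extent. Levels of 10 FPKM or more occurred in 1 Type-1 and 3 Unknown neurons, and the 4 values from 12.8 to 39.6 FPKM were well above the 1.93 FPKM of sample 7, which rested on 255 fragments.

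Kcnd3, the Kv4.3 gene (chromosome 3, 105452330 to 105674002), was highest in the Type-2 neuron. Sample 1 held it at 16.4 FPKM from 3372 fragments, and sample 5 at 1.72 FPKM from 605 fragments. The other 8 neurons had 5 fragments or fewer, and in samples 2, 4, 8 and 10 there were none. Kcnd1, the Kv4.1 gene on chromosome X (7822289 to 7838280), was present in sample 5 alone, at 1.70 FPKM from 329 fragments, with 4 or fewer in the other 9 neurons. Sample 5 was thus the 1 neuron with 3 pore-forming genes at 1 FPKM or more, each at a low level.

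Summed over the 4 pore-forming genes, the level across Type-1 samples 4 to 7 was 0.574, 7.69, 56.8 and 21.01 FPKM, and that of the Type-2 sample 1 was 16.6 FPKM. In the Unknown samples 2, 3, 8, 9 and 10 it was 39.6, 0.0769, 31.1, 12.9 and 0.00636 FPKM. The groups overlapped, with a mean of 21.5 ± 24.98 FPKM in Type-1 (SD, n = 4 neurons) and 16.7 ± 18.04 FPKM in Unknown neurons (SD, n = 5 neurons). Without sample 4 the Type-1 mean was 28.5 ± 25.4 FPKM (SD, n = 3 neurons). Kcna4 made up 54.9%, 37.8% and 90.8% of the summed pore-forming level in samples 5, 6 and 7. In samples 2, 8 and 9 the sum was nearly all Kcnd2, and in sample 1 nearly all Kcnd3. Samples 3 and 10 had no pore-forming member at 1 FPKM, with 7 fragments or fewer for each of the 4 genes.

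The KChIP genes were more widespread, and 9 of the 10 neurons had at least 1 of them above 9 FPKM. Kcnip1 (KChIP1, chromosome 11, 33629339 to 33993152) stood at 9.34 FPKM in sample 4 and 12.2 FPKM in sample 7, both Type-1. The Unknown samples 2, 8, 9 and 10 held 15.1, 11.3, 15.7 and 35.8 FPKM. The other 4 neurons held 10 fragments or fewer. The 6 neurons that carried it, apart from sample 10, differed by less than 2-fold.

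Kcnip2 (KChIP2, chromosome 19, 45791839 to 45816061) had the highest single values of all members. Samples 5 and 7, both Type-1, held 85.1 and 78.8 FPKM, against 10 fragments or fewer in the Type-1 samples 4 and 6. Of the Unknown neurons, samples 3, 8, 9 and 10 held 40.2, 10.6, 17.4 and 6.45 FPKM and sample 2 held 0.045 FPKM. The Type-1 neurons thus lay at both ends, and the Unknown neurons that carried it lay below samples 5 and 7.

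Kcnip3 (KChIP3, chromosome 2, 127456498 to 127522094), also known as the calcium-dependent repressor of transcription DREAM, had 25.5 FPKM in sample 4 and 31.2 FPKM in sample 6 among the Type-1 neurons. Samples 2, 3 and 8 of the Unknown group had 23.0, 55.8 and 33.8 FPKM. The remaining 5 neurons had 4 fragments or fewer. It was the highest of the members in sample 4, the library with the highest summed microglia markers, and its source there was not tested. Kcnip4 (KChIP4, chromosome 5, 48389502 to 49524907) reached 72.5 FPKM in the Type-1 sample 7, and the Unknown samples 8, 9 and 10 held 29.2, 24.6 and 16.5 FPKM. The other 6 neurons, 3 of them Type-1, had 10 fragments or fewer.

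The Type-2 neuron had no KChIP gene above 0.14 FPKM. Summed over the 4 genes, sample 1 held 0.369 FPKM, from 11 fragments or fewer per gene. The Type-1 neurons held between 31.3 and 163 FPKM, and the Unknown neurons between 38.2 and 96.1 FPKM, so the 9 other neurons all lay above it. Few genes were detected in sample 1, with 5065 at 1 FPKM or more. In sample 3, where 5055 genes reached that level, the KChIP sum was 96.1 FPKM. Whether the number of genes detected bears on the low sum in sample 1 was not tested. Taken singly, none of the 4 genes lay below the Type-1 range in sample 1.

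Dpp6 (chromosome 5, 26817203 to 27727505) was the member found in the most neurons, at 1 FPKM or more in 9 of 10. The Type-1 samples 5, 6 and 7 held 25.8, 10.1 and 12.8 FPKM, and the Type-2 sample 1 held 8.12 FPKM. Levels in the Unknown samples 2, 3, 8, 9 and 10 were 1.35, 12.6, 30.7, 30.9 and 8.10 FPKM. The exception was sample 4, with 3 fragments (0.00825 FPKM). Dpp10 (chromosome 1, 123321471 to 124045559) stayed lower in every neuron. The Type-1 samples 6 and 7 held 0.546 and 1.05 FPKM and the Unknown samples 8, 9 and 10 held 1.32, 4.84 and 2.05 FPKM, with 5 fragments or fewer in samples 1 to 5.

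**Figure D2:**
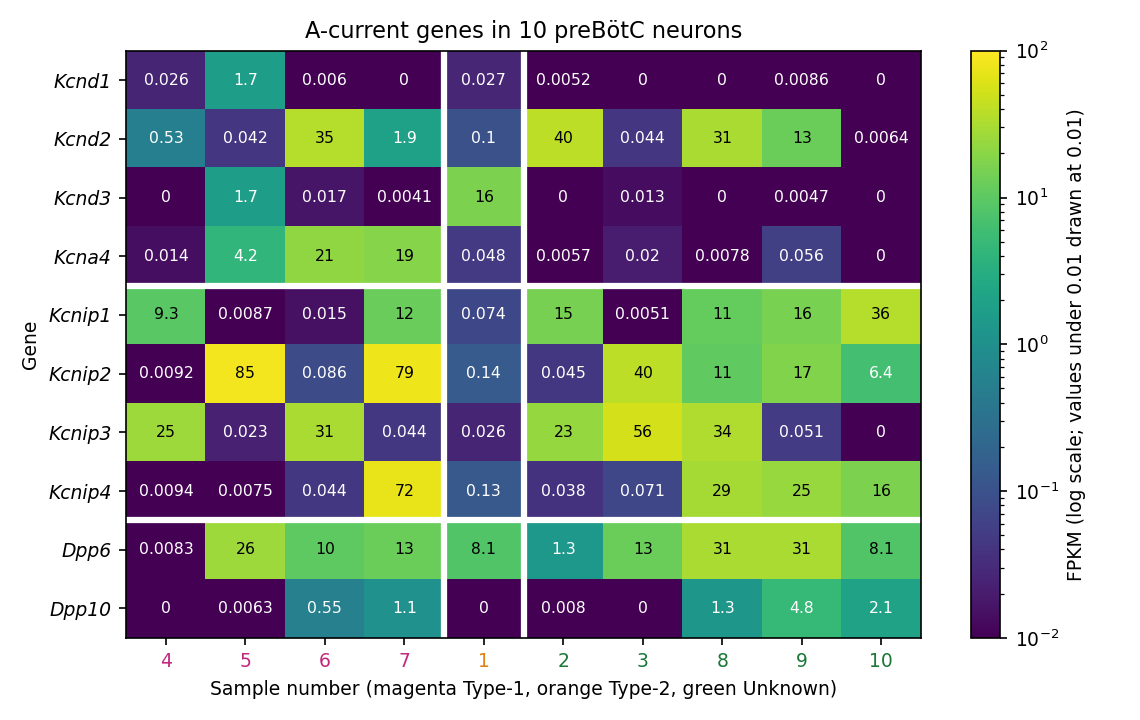
FPKM of each A-current gene (rows) in each neuron (columns, ordered by type), with the value printed in each cell and the colour on a log scale. Kcna4 is at 4.23 to 21.4 FPKM in samples 5, 6 and 7 and at most 0.0562 FPKM elsewhere, and the column of the Type-2 sample 1 holds only Kcnd3 and Dpp6.

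Read by neuron, no 2 libraries held the same set of members at 1 FPKM or more. The Type-2 sample 1 held Kcnd3 and Dpp6. The Type-1 sample 5 held Kcnd1, Kcnd3 and Kcna4 with Kcnip2 and Dpp6, sample 6 held Kcnd2 and Kcna4 with Kcnip3 and Dpp6, and sample 7 held Kcnd2 and Kcna4 with Kcnip1, Kcnip2, Kcnip4, Dpp6 and Dpp10. The Type-1 sample 4 held only Kcnip1 and Kcnip3. Among Unknown neurons, samples 2, 8 and 9 paired Kcnd2 with 2, 4 and 3 KChIP genes and with Dpp6, and samples 8 and 9 also held Dpp10. Samples 3 and 10 held KChIP and DPP genes without a pore-forming member at that level. The number of members at 1 FPKM or more was 2 to 7 in Type-1 (mean 4.5 ± 2.08, SD, n = 4 neurons), 3 to 7 in Unknown (mean 5 ± 1.58, SD, n = 5 neurons) and 2 in the Type-2 neuron. Without sample 4 the Type-1 mean was 5.33 ± 1.53 (SD, n = 3 neurons), above that of the Unknown neurons in place of below it. This step leaves in samples 2 and 3, Unknown libraries with little cDNA, which had 4 and 3 members. The Unknown samples 8, 9 and 10 had 7, 6 and 5, against 5, 4 and 7 in the Type-1 samples 5, 6 and 7. The order of the means thus depends on which libraries are left out.

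**Figure D3:**
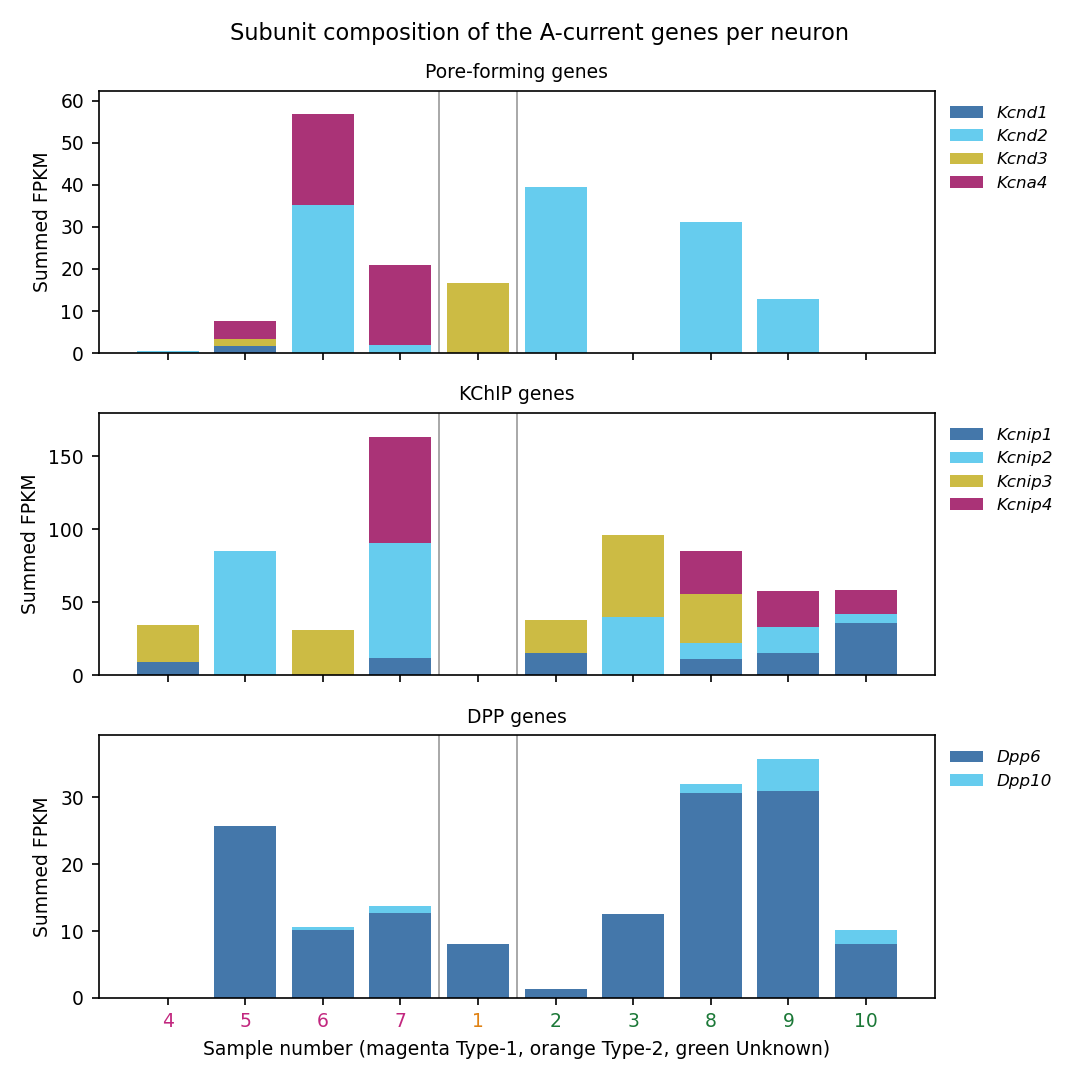
Summed FPKM of the pore-forming, KChIP and DPP genes in each neuron (stacked bars from 0, 1 bar per neuron, ordered by type). Kcna4 enters the pore-forming sum in samples 5, 6 and 7, Kcnd2 makes up nearly all of the pore-forming segment in samples 2, 8 and 9, and the KChIP bar of the Type-2 sample 1 is 0.369 FPKM.

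Across the 10 neurons, the 45 pairs of members correlated in log2(FPKM + 1) with Pearson's r between -0.52 and 0.808 and a median of -0.0276. The pairs above 0.6 were Kcnip4 with Dpp10 (0.808), Kcnip2 with Dpp6 (0.682) and Kcnip1 with Kcnip4 (0.666). Kcnip4 and Dpp10 reached 1 FPKM in the same neurons, samples 7 to 10, a pattern held by 13 of 16546 genes (0.0786%). The pattern was read from these genes in the same libraries, so its small share does not measure how unusual the match is. The match depends on that limit, which Dpp10 barely passed in sample 7, at 1.05 FPKM. In sample 6 Dpp10 was at 0.546 FPKM from 296 fragments, where Kcnip4 had 5 fragments. These values describe 10 libraries that differ in type, mouse line and number of genes detected.

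Type-1 and Unknown neurons were then compared by their mean FPKM over the 12841 genes with a mean of at least 1 FPKM over the 9 neurons, which leaves out Kcnd1 and Kcnd3. A mean at least 2-fold higher in Type-1 was found for Kcna4 and Kcnip2, 2 of the 8 members compared, and for 27% of all genes. A mean at least 2-fold lower was found for Kcnip1 and Dpp10, again 2 of 8, and for 22.9% of all genes. The member counts are near these shares. They also rest on single neurons. Without sample 4 there were 2 members higher (26.9% of all genes) and, with Kcnip3, 3 lower (27%). Without sample 5 or without sample 7 there was 1 member higher, without sample 6 there were 4 lower, and without sample 9 or without sample 10 there was 1 lower.

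For no member did every Type-1 value lie above every Unknown value (0.607% of all genes) or below it (0.459%). Without sample 4, Kcna4 was the 1 member of 8 whose Type-1 values all lay above the Unknown values, as did 3.43% of the 12614 genes then compared, and no member lay below (1.49%). The mean of Kcna4 was 11.2 ± 10.7 FPKM in Type-1 (SD, n = 4 neurons) and 0.0179 ± 0.0226 FPKM in Unknown neurons (SD, n = 5 neurons). On the log2(FPKM + 1) scale the difference was 2.78, and 3.71 without sample 4. Kcnip2 had means of 41.0 ± 47.35 and 14.9 ± 15.5 FPKM in the same groups. Its difference on the log2(FPKM + 1) scale was 0.01, and 1.08 without sample 4, and samples 5 and 7 hold nearly all of the Type-1 mean. Kcnip1 had means of 5.39 ± 6.32 and 15.6 ± 12.9 FPKM and a log2 difference of -1.60, and of -2.13 without sample 4. Dpp10 had means of 0.401 ± 0.503 and 1.64 ± 1.99 FPKM and a log2 difference of -0.66, and of -0.52 without sample 4. For Kcnip2, Kcnip1 and Dpp10 the difference between the means was smaller than the larger of the SDs.

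**Figure D4:**
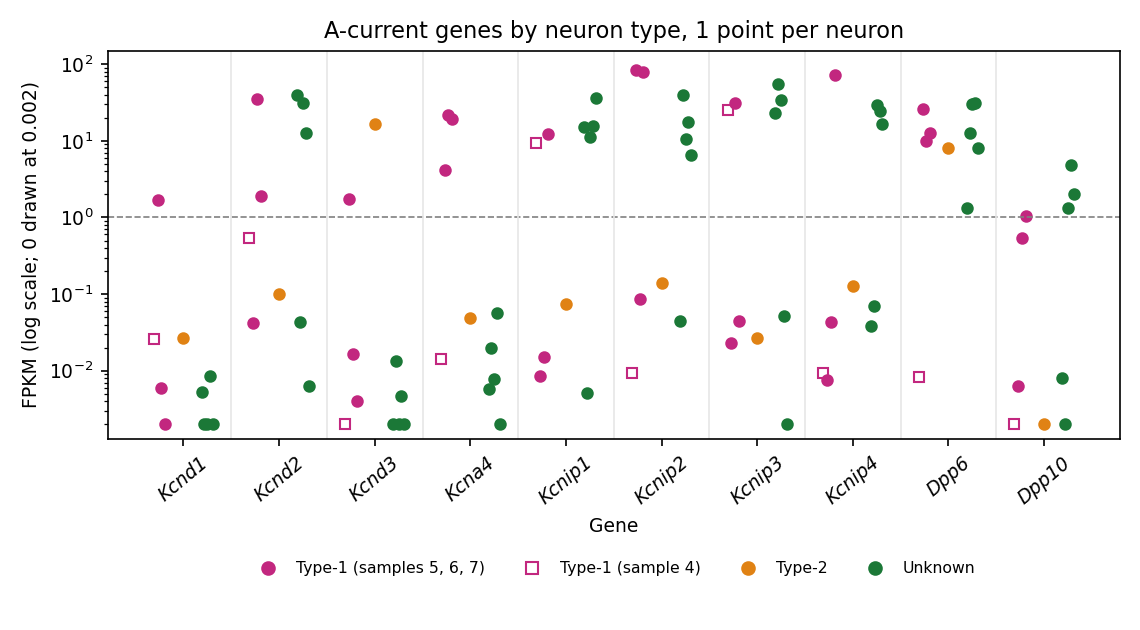
FPKM of each A-current gene by neuron type, 1 point per neuron (log axis, 0 drawn at 0.002, dashed line at 1 FPKM, open square for sample 4). Only for Kcna4 do samples 5, 6 and 7 all lie above the Unknown neurons, and for Kcnd3 the Type-2 neuron lies above all others.

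The Type-2 neuron was compared with the range of the Type-1 neurons, over the 12283 genes with a mean of at least 1 FPKM in these 5. Kcnd3 was the 1 of 8 members compared that lay above the range and at least 2-fold above the mean (16.4 FPKM against 0 to 1.72 FPKM), as did 18.4% of all genes. No member lay below the Type-1 range and 2-fold below the mean (24.7% of all genes). In each the lowest Type-1 value was below that of sample 1. Outside Kcnd3 and Dpp6, both of these values rested on 11 fragments or fewer. For Kcnip3 they were 2 fragments in sample 1 and 3 in sample 5, so the order of such values says little. Without sample 4, Kcnd3 again lay above, as did 19.9% of all genes, and Kcna4 lay below, as did 38.3%. Without sample 5, 2 members lay below, Kcnd2 and Kcnip3, the latter with 2 fragments in sample 1 against 4 in sample 7. With 1 Type-2 neuron and 1 library, these values have no replicate.

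Neuron type went with mouse line and, in part, with age. CD-1 mice gave all 5 Unknown neurons, while Dbx1;Ai148 mice gave 3 of the 4 Type-1 neurons, so type and line cannot be told apart in the comparison of these groups. Within the 4 Dbx1;Ai148 neurons, Kcna4 was at 4.23 FPKM or more in the Type-1 neurons and at 0.0484 FPKM in the Type-2 neuron. The P3 samples 6 and 7 had higher Kcna4 than the P0 sample 5, while the P3 sample 4, with little neuronal RNA, had 2 fragments. The P0 samples 1, 3 and 8, the P1 sample 10 and the P2 samples 2 and 9 had 6 fragments or fewer. Among transmitter genes, Slc17a6, the vesicular glutamate transporter, was at 101, 158 and 156 FPKM in the Kcna4 neurons, samples 5, 6 and 7. It was at 230 FPKM in the Unknown sample 8, where Kcna4 had 1 fragment and Kcnd2 was at 31.1 FPKM. The 4 GABAergic or glycinergic markers summed to 261 FPKM in the Type-2 sample 1, the neuron with the most Kcnd3, and to 135 and 60.2 FPKM in samples 10 and 3, the Unknown neurons without a pore-forming member at 1 FPKM. They summed to 8.31 FPKM or less in the other 7.

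A list of 25 partner genes of the current covered other pore-forming subunits that can inactivate or join such channels, the Kv beta subunits, a calcium sensor, single-pass subunits and scaffolds. Of these, 19 reached 1 FPKM in at least 1 neuron and 5 had no fragment in any of the 10 (Kcna5, Kcne1, Kcne2, Kcne3 and Kcne4). The median gene reached 1 FPKM in 4 neurons, against 4.5 for the 10 members. The highest mean was that of Ncs1, a neuronal calcium sensor that can bind Kv4 channels, at 33.2 ± 24.2 FPKM (SD, n = 10 neurons). It was the 1 partner at 1 FPKM or more in all 10 neurons. Kcna3, which encodes Kv1.3, followed at 19.98 ± 26.4 FPKM and reached 45.8 to 70.8 FPKM in the Unknown samples 2, 9 and 10. Kcne1l, the gene also named Kcne5, which encodes a single-pass subunit, reached 144, 18.96 and 9.60 FPKM in samples 3, 8 and 4 and stayed at 0.0606 FPKM or less elsewhere.

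The Kv beta subunits include one, encoded by Kcnab1, that can give fast inactivation to Kv1 channels. Kcnab1 reached 22.6 FPKM in sample 6, where Kcna4 was highest, and 4.81 FPKM in sample 8, with 0.0213 FPKM at most in the remaining 8. Kcnab2 was at 9.87, 3.10, 5.00 and 3.35 FPKM in samples 2, 5, 9 and 10 and at 0.00974 FPKM or less elsewhere. Kcnab3 was at 45.1 FPKM in sample 2 and between 1.23 and 14.2 FPKM in samples 5, 6, 7, 8 and 10. Of the 16 partners compared between Type-1 and Unknown neurons, 4 had a 2-fold higher mean in Type-1 (27% of all genes) and 7 a 2-fold lower one (22.9%), and in none were the ranges apart. Without sample 4 the counts were 6 higher (26.9%) and 6 lower (27%) of 17, and Dlg3 was the 1 partner with Type-1 values all above the Unknown values (3.43% of all genes). Dlg3, which encodes the synaptic scaffold SAP102, was at 16.5, 11.8 and 13.9 FPKM in samples 5, 6 and 7, and no Unknown neuron exceeded 11.2 FPKM.

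A search for like patterns covered the 10412 genes that reached 1 FPKM in 3 neurons or more. The 3 genes whose log2(FPKM + 1) followed Kcna4 most closely over the 10 neurons were Gm12178 (Pearson's r = 0.994), Evx2 (0.993) and Gm10699 (0.993). Evx2, which encodes a homeobox transcription factor, had 1.89, 12.8 and 14.1 FPKM in samples 5, 6 and 7, and 0.126 FPKM at most elsewhere. For Kcnd2 the closest were 2900093K20Rik (0.969), Cxxc4 (0.944) and Chrm2 (0.921). Chrm2, the M2 muscarinic acetylcholine receptor gene, was at 21.5, 19.2, 9.25 and 23.0 FPKM in samples 2, 6, 8 and 9, the neurons in which Kcnd2 was above 10 FPKM. The 10 libraries differ in depth, in genes detected and in neuron type, and such correlations are a description only.

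Exons of 3 other genes overlap those of a member on the opposite strand, and the sources do not state a strand setting for the counting. The antisense gene Kcnd3os shares 165 bases of exon with Kcnd3 and had 2555 fragments in sample 2, where Kcnd3 had 0, and none in sample 1, where Kcnd3 had 3372. Kcnip4 shares 168 bases with the protein-coding gene 5730480H06Rik and 99 bases with the antisense gene Gm20700. 5730480H06Rik had 2955 fragments in sample 3, where Kcnip4 had 8, and 3 fragments in sample 9, where Kcnip4 had 1967. It had 1968, 2287 and 803 fragments in samples 7, 8 and 10, where Kcnip4 had 6753, 2811 and 1823. Whether fragments of one gene were counted for the other was not tested. Gm20700 had 473 fragments in sample 7 and 95 in sample 10, neurons in which Kcnip4 was present, and 17 or fewer elsewhere.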

How the data were processed

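Fragments of 10 libraries, 1 per neuron, were sequenced as paired reads after SMART-Seq v4 amplification. The authors trimmed adapters with bbduk, aligned the reads to GRCm38 (mm10) with STAR 2.7.7a and the Ensembl 102 annotation, and deposited raw counts of fragments per gene from featureCounts. They also deposited gene lengths and FPKM, which equal these counts scaled by gene length and by the sum over genes. Options for strand and for fragments that match several genes are not given in the sources used here.

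The FPKM were used as deposited. The 10 genes and the partner and marker lists were chosen with earlier results of these data known. Among the other genes, those named were the 3 partners with the highest mean, partners with ranges apart, the Kv beta subunits, the 3 genes most like Kcna4 and Kcnd2, and antisense genes. A gene was called present at 1 FPKM, and types were compared by a 2-fold ratio of means and by whether ranges overlapped. Differences used log2(FPKM + 1). The sources name no animal, so no test was run. Intervals are exact Poisson intervals at 95%. Positions and exons are from GENCODE M21, which held 53292 of the 55367 symbols. Scripts ran in Python 3.11.15 with pandas 2.3.3, SciPy 1.17.1, NumPy 2.4.6 and Matplotlib 3.10.9. Alternatives were TPM, other limits and pseudocounts, thinning, low counts set to 0 and leaving out each neuron.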

Additional observations from a re-analysis of the deposited data

Results flagged for a closer look

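Of 26 groups of values examined (the 10 genes and the 3 subunit sums, in Type-1 and in Unknown neurons, as log2(FPKM + 1)), 3 had a highest value whose gap to the next one exceeded the 95% limit of Dixon. Chance alone gives such a gap in about 1 of 20 groups of normally spread values, a rate that cannot be applied to genes that were either well covered or nearly absent. Each of the 3 marks a gene that reached 1 FPKM in 1 of the 4 Type-1 neurons. All 3 were among Type-1 neurons. Kcnd1 in sample 5 was at 1.43 (1.70 FPKM, against 0.0257 FPKM or less in the other Type-1 neurons). Kcnd3 in sample 5 was at 1.45 (1.72 FPKM, against 0.0166 FPKM or less). Kcnip4 in sample 7 was at 6.20 (72.5 FPKM, against 0.0438 FPKM or less).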

How the results depend on the processing

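The log2 difference of each of the 10 members between Type-1 and Unknown neurons was recomputed under 13 alternatives. It moved by less than the SD between neurons in 127 of 130 cases and by more in 3, and kept its sign throughout in 7 members. Among these, Kcnd1 and Kcnd3 fell from 0.365 and 0.363 to 0.0111 and 0.00465 without sample 5, so their sign rests on that neuron. Kcna4 ranged from 2.22 to 5.02 and Kcnip1 from -2.53 to -1.01, while Kcnip2 (-1.06 to 1.08), Kcnip3 (-1.51 to 0.14) and Dpp6 (-1.30 to 0.37) took both signs. With a limit of 0.1 FPKM, 4 members passed in the Type-2 neuron in place of 2. The added ones, Kcnip2 and Kcnip4, rested on 11 and 10 fragments. The number of members 2-fold higher in Type-1 was 1 on the mean log2(FPKM + 1), 4 with no filter on low values, which lets in Kcnd1 and Kcnd3, and between 1 and 2 with each neuron left out (1 without sample 5 or sample 7). The number 2-fold lower was 4 with medians and between 1 and 4 with each neuron left out (4 without sample 6, 1 without sample 9 or sample 10). Members with all Type-1 values above the Unknown values were between 0 and 1 when each neuron was left out, the 1 being Kcna4 without sample 4. Members of the Type-2 neuron below the Type-1 range were between 0 and 2, with 1 without sample 4 and 2 without sample 5. The limit of 50 fragments and the removal of samples 1 to 4 were both chosen after seeing the data. The limit was applied to the members present, and the removal to the 2-fold counts. Neither moved those counts by over 1.5 times. The counts of ranges apart, and of the Type-2 neuron against the Type-1 range, were not recomputed under either. For the other changes the cause was not tested. No paired analysis was possible because the neurons share no replicate number in the labels. Thinned to the smallest library, the mean numbers of members present stayed at 4.5, 2 and 5 in Type-1, Type-2 and Unknown neurons and the log2 difference of Kcna4 was 2.79. The source of counts of 11 fragments or fewer was not tested.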
